A study of Mus musculus with 6 samples.

Results

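Gamma crystallins were examined in the tissue from which the mouse eye lens forms. The members are the 8 genes Cryga, Crygb, Crygc, Crygd, Cryge, Crygf, Crygs and Crygn, chosen by gene symbol in the platform annotation from the 19057 genes it names, and they were covered by 11 of the 45281 probes on the array: 3 for Crygn, 2 for Crygd and 1 for each of the other genes. The wild type group was lens placode, and the Pax6-/- group was the matching surface ectoderm, both on a mixed FVB and 129 background at embryonic day 9.5. Both tissues were cut by laser microdissection from 10 µm frozen sections stained with Eosin Y. The labels describe RNA of 3 embryos pooled within a genotype and then amplified in triplicate, giving 3 arrays per genotype, so p-values measure only the spread between these samples, which may be technical. The labels do not name the Pax6 allele.

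Gamma crystallins are small, monomeric structural proteins that pack at high concentration in the lens and give it its refractive power. They are best known as products of differentiating fibre cells, which form after the placode has folded into a vesicle, and their genes are bound and regulated by lens transcription factors that include Pax6, large Maf proteins, Sox proteins and Prox1. In the mouse, Cryga to Crygf have closely similar sequences. Crygs and Crygn lie apart from them and are more distant relatives, Crygs being a crystallin of the mature lens and Crygn one that is also made in the retina.

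In the gene table of the GRCm38.p6 assembly, Cryge, Crygd, Crygc, Crygb and Cryga followed each other on chromosome 1 with 0 other protein-coding genes between neighbours, and Crygf lay beyond Cryga with 4 in between. Crygn was on chromosome 5 and Crygs on chromosome 16. The 100 bases before each RefSeq start are shown here as promoter sequence. They lie outside the transcript, so they do not show how alike the targets of the probes are. Capitals mark TTTGTG, a run of letters found in all 6 genes of chromosome 1 on the strand of the gene. They also mark TATATA, which resembles a TATA box and is in all 6 as well, with overlapping copies joined. No longer run of letters was common to the 6 promoters. In Crygs they mark the letters of the TATA box itself, TATAAA.
Cryge, chr1:65051164-65051263, minus strand: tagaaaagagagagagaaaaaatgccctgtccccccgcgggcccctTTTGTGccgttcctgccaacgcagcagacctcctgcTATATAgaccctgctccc
Crygf, chr1:65926422-65926521, plus strand: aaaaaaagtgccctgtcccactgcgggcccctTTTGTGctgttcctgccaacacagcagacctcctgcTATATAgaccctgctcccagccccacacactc
Crygd, chr1:65063441-65063540, minus strand: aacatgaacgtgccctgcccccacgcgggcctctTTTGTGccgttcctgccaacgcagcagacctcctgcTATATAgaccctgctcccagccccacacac
Crygc, chr1:65073533-65073632, minus strand: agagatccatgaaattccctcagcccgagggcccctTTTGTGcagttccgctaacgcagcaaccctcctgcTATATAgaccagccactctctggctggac
Crygb, chr1:65082291-65082390, minus strand: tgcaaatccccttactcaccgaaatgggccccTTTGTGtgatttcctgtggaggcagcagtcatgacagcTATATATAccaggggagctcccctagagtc
Cryga, chr1:65103364-65103463, minus strand: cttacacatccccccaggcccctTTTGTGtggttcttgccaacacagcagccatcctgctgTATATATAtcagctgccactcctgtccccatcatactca
Crygn, chr5:24757849-24757948, minus strand: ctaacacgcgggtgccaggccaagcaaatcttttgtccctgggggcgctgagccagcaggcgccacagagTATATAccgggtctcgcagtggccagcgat
Crygs, chr16:22811411-22811510, minus strand: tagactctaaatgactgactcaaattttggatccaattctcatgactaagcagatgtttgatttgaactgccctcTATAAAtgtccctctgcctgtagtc

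Over the 300 bases of the RefSeq promoter table (250 before to 50 after the start), Cryge and Crygf were 83.1% identical by global alignment, Crygd and Crygf 70.7%, and Crygd and Cryge 68.4%. The other pairs among the 6 genes of chromosome 1 lay between 52.8% and 59.9%, and pairs with Crygs or Crygn between 45.7% and 51.3%. TTTGTG on the gene's strand was in 6 of the 8 promoters, and in 9.39% of all 32851 promoters. TATATA, on either strand, was in 7 of 8 and in 5.67% of all. Of the letters searched on both strands for factors known in lens, TGCTGA, an arm of the palindromic Maf recognition element, was in 4 of 8, those of Cryga, Crygc, Crygs and Crygn (19.5% of all promoters). The Sox core ACAAAG was in those of Cryga and Crygb (18.7% of all, with the Crygb match overlapping TTTGTG), and the variant ACAATG was in those of Crygd and Crygs (12.6%). TATAAA was in that of Crygs (13.6%). The first pair of these runs was searched for after the sequences had been seen. The probe sequences are not used here, so it was not determined which of these genes each probe can bind. A signal is therefore named by the probe's annotated gene.

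Detection was read first, as the share of negative control beads brighter than the probe, with a probe called detected at a detection p under 0.05. All 3 wild type arrays detected 5 of the 11 probes, 1 each for Crygb, Crygc, Crygd, Cryge and Crygn; for comparison, 40.2% of all probes were detected on all 3 wild type arrays. Of these 5, the Crygb, Crygc, Crygd and Cryge probes were detected on at most 1 Pax6-/- array, a pattern seen in 6.81% of the 18219 probes detected on all wild type arrays. Counted as pairs of a probe and an array, these 4 probes were detected in 12 of 12 wild type pairs and in 3 of 12 Pax6-/- pairs. At a detection p under 0.01 the counts were 11 of 12 and 0 of 12. The 4 probes were grouped by their detection at 0.05, so these counts describe them and are no test. Pairs on the same array are not replicates. Crygn was detected on all 6 arrays at either level.

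The beads behind each value numbered 23 to 63 per member probe and array, with a median of 40. The standard error between beads was 2.85% to 6.71% of the signal, which is smaller than the differences between replicate arrays described for Crygb and Crygd. Over the whole series, 21062 to 22712 probes were detected on 5 arrays, while Pax6-/- replicate 2 was dimmer, with 17276 detected probes and a mean signal of 182, where the other arrays had 228 to 260. On that array the lowest detected log2 signal was 5.39, against 4.79 to 4.90 elsewhere. Both Pax6 probes were detected on all 6 arrays, and ILMN_2612187 gave a log2 difference of -0.66 (SE 0.27), which did not pass the limma test over all probes (adjusted p = 0.528).

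**Figure D1:**
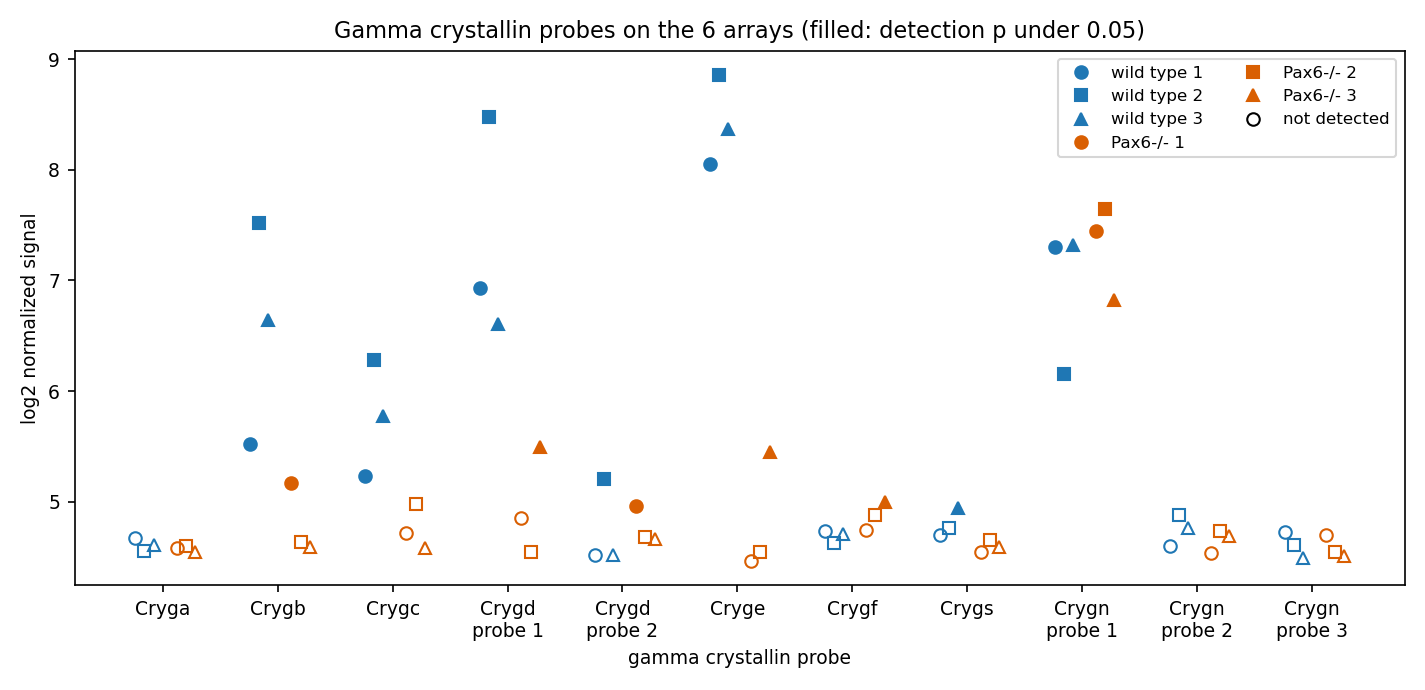
Normalized log2 signal (y axis) of the 11 gamma crystallin probes (x axis) on each array, blue for wild type and orange for Pax6-/-, with the symbol giving the replicate and open symbols arrays without detection. For Cryge the wild type arrays lie at 8.06 to 8.86 and the Pax6-/- arrays at 4.46 to 5.45, while the Crygn arrays of both genotypes intermix.

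Cryge had the largest difference of all members. Its human counterpart is a pseudogene, while in the mouse it encodes a lens protein. The probe ILMN_2693134 read 323, 578 and 371 intensity units on the wild type arrays and 48.5, 51.1 and 84.9 on the Pax6-/- arrays, before background correction. On the normalized log2 scale these were 8.06, 8.86 and 8.37 against 4.46, 4.54 and 5.45. Every wild type array was above every Pax6-/- array, and only replicate 3 of the latter detected the probe, with 1.39% of the negative controls brighter. The wild type mean was 8.43 ± 0.40 and the Pax6-/- mean 4.82 ± 0.55 (SD, n = 3).

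The fitted difference of Cryge, Pax6-/- minus wild type, was -3.61 on the log2 scale (SE 0.38, 95% interval -4.50 to -2.72), and limma's adjusted p over all 21971 tested probes was 0.0832. This did not pass the threshold of 0.05. It was the probe with the 7th smallest p of the table. Because most Pax6-/- arrays were at background, the size is a bound on the difference of the means. For the bound, each Pax6-/- array entered with its own Cryge signal or that of its dimmest detected probe, whichever was higher. Set against these values, the mean of Cryge was at least 9.11-fold lower. The bound holds no sampling error, and the 95% interval reaches smaller falls, as it also does for Crygd, Crygb and Crygc below. Arrays were grouped by slide, read from the number that starts each array name in the file headers. Slide 1 held wild type replicate 1 with Pax6-/- replicates 1 and 2, and slide 2 held the rest. Each value within a slide thus rests on a single array of 1 genotype. The difference of Cryge was -3.55 within slide 1 and -3.16 within slide 2, and between -3.91 and -3.35 when 1 array was left out. With array weights estimated by limma it passed (-3.38, adjusted p = 0.0432), and over the other settings that were tested the adjusted p ran from 0.0644 to 0.509.

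Crygd, whose mutations cause cataract in mice and people, was second. Its probe ILMN_2884655 read 171, 450 and 137 intensity units in wild type and 68.3, 51.3 and 86.6 in Pax6-/-. The normalized log2 signals were 6.93, 8.48 and 6.61 against 4.86, 4.55 and 5.50, so the genotypes did not overlap, and wild type replicate 2 stood above the other wild type arrays. As for Cryge, Pax6-/- replicate 3 was the one knockout array with detection, again with 1.39% of the negative controls brighter. The fitted difference was -2.37 (SE 0.54, 95% interval -3.65 to -1.10, limma adjusted p = 0.290), which is at least 4.24-fold by the same bound, and was -1.78 without wild type replicate 2. Within slide 1 it was -2.23 and within slide 2 -2.05.

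The other Crygd probe, ILMN_2772482, did not show this pattern. It read 50.6, 76.4 and 50.3 intensity units in wild type and 72.6, 56.0 and 57.1 in Pax6-/-, and was detected on wild type replicate 2 and Pax6-/- replicate 1. It was left out of the fit because too few arrays detected it. Fitted together with all undetected probes it gave a log2 difference of 0.02 (SE 0.23, limma adjusted p = 0.985). The Crygd values thus come from 1 of its 2 probes.

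Crygb, another structural gamma crystallin, varied most among the wild type arrays together with Crygd. Its probe ILMN_2757133 read 91.0, 244 and 139 intensity units in wild type and 80.3, 54.6 and 53.5 in Pax6-/-. In normalized log2 signal this was 5.52, 7.52 and 6.64 against 5.17, 4.63 and 4.59, with the lowest wild type array close above the highest Pax6-/- array. Here the knockout array with detection was replicate 1, with 2.56% of the controls brighter, and not replicate 3. The fitted difference was -1.77 (SE 0.52, 95% interval -2.99 to -0.55, limma adjusted p = 0.408), or at least 2.68-fold by the same bound. It was -0.62 within slide 1 and -2.50 within slide 2.

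Crygc, a further member of the chromosome 1 group, had the smallest difference of the 4. Its probe ILMN_1221737 read 81.2, 123 and 94.5 intensity units in wild type and 62.4, 60.5 and 53.3 in Pax6-/-, and no Pax6-/- array detected it. The normalized log2 signals were 5.24, 6.28 and 5.77 against 4.72, 4.98 and 4.59, again without overlap. The fitted difference was -1.0 (SE 0.34, 95% interval -1.80 to -0.21, limma adjusted p = 0.464), or at least 1.65-fold by the same bound. It was -0.39 within slide 1 and -1.44 within slide 2.

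Crygn was the other member with a tested probe. The probe ILMN_2774572 read 210, 116 and 198 intensity units in wild type and 238, 176 and 156 in Pax6-/-. The normalized log2 signals were 7.30, 6.15 and 7.32 against 7.44, 7.65 and 6.82, and the genotypes overlapped. The fitted difference was 0.38 (SE 0.42, limma adjusted p = 0.782), with a 95% interval from -0.61 to 1.37 that leaves room for a change of either sign, and it was -0.01 without wild type replicate 2. The remaining Crygn probes, ILMN_3102770 and ILMN_3029509, were detected on no array, with intensities of 53.0 to 66.2 and 48.5 to 61.7.

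Within each array, the log2 signal of Cryge minus that of Crygn was lower on every Pax6-/- array than on every wild type array, and the change between genotypes was -3.99. For Crygd it was -2.75, for Crygb -2.15 and for Crygc -1.38. An exact two-sided permutation test over the 6 arrays gave p = 0.1 in each case, the smallest p that 3 arrays against 3 allow. The probes were chosen as lower on every Pax6-/- array, and Crygn as the tested member that was not lower. The outcome was thus largely fixed by the choice and lends no support to a difference.

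Signal for Cryga, Crygf and Crygs stayed near background. The Cryga probe ILMN_2705692 was detected on no array and read 51.1 to 59.1 intensity units; 36.6% of all probes were detected on no array. The Crygf probe ILMN_1256721 read 57.4 to 62.5 in wild type and 59.4 to 69.8 in Pax6-/-, and was detected on Pax6-/- replicate 3 alone, with 2.88% of the controls brighter. Its promoter is the one closest to that of Cryge in the sequences above, and no wild type array detected the Crygf probe. Likeness of promoters does not tell whether the Cryge and Crygf probes share targets. The Crygs probe ILMN_2702266 read 60.4 to 68.0 in wild type and 53.5 to 55.2 in Pax6-/-, and was detected on wild type replicate 3 alone, with 2.67% of the controls brighter. Over the 6 probes left out of the fit, 4 of 36 pairs of a probe and an array were detected at 0.05 and 0 at 0.01. Neither the presence nor the absence of these transcripts was read from such values.

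Of the 5 tested gamma crystallin probes 0 passed limma's adjusted threshold of 0.05, which 0.0091% of all tested probes passed (2 of 21971, both lower). At an unadjusted p under 0.05 there were 4 lower and 0 higher, where 5.22% of all tested probes were lower and 4.04% higher. The genotypes did not overlap for the same 4, against 9.13% of all tested probes that were lower without overlap and 8.14% that were higher. These 4 probes met the filter of 3 arrays with detection through their wild type arrays, so the counts describe them and lend no support to a direction. They share the arrays and may share target sequence, so they are not independent. Wild type replicate 2 gave the highest signal for all 4, and the lowest for Crygn. The 3 arrays are amplifications of RNA that the labels describe as pooled, and this spread was not traced further. In bulk tissue, fewer lens-forming cells and less RNA per cell cannot be told apart.

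**Figure D2:**
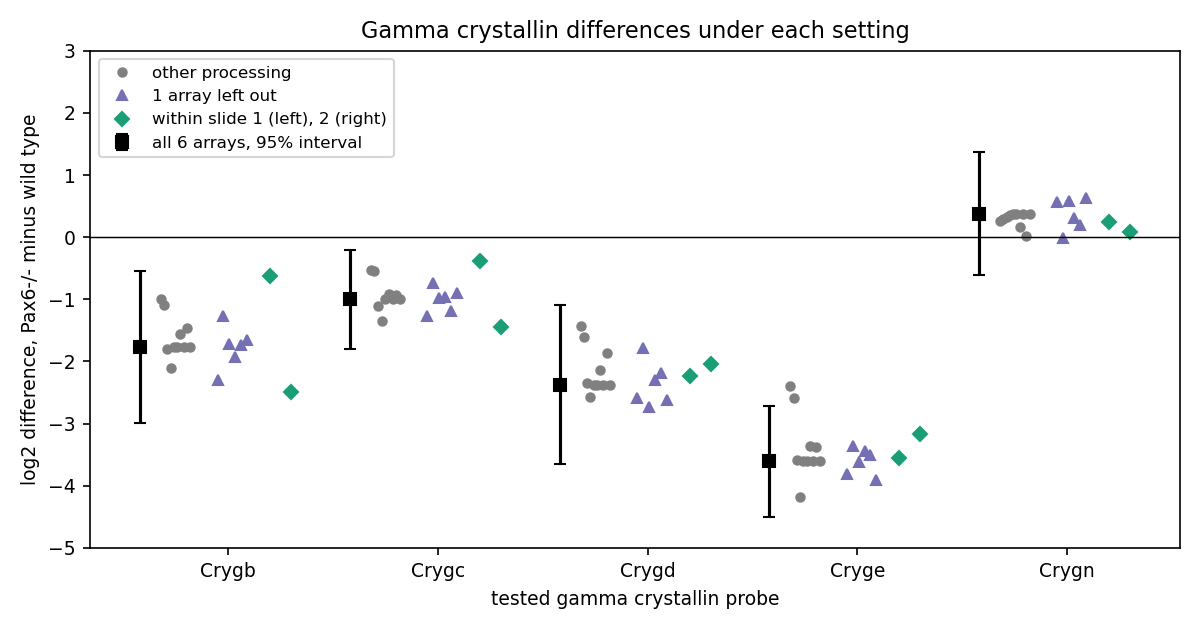
Log2 difference, Pax6-/- minus wild type (y axis), of the 5 tested gamma crystallin probes (x axis): black squares give the fit to all 6 arrays with its 95% interval, grey circles other processing, triangles fits with 1 array left out, and diamonds the values within slide 1 and 2. Cryge stays between -4.19 and -2.40, and Crygn lies between -0.01 and 0.63.

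The tissue labels were compared with marker genes. For each list the normalized signals were summed on the linear scale and the sum taken to log2, so the brightest markers weigh most. For 8 lens placode markers, of which Pax6 itself was the brightest, this was 12.12 to 12.50 on the wild type arrays. On the Pax6-/- arrays it was 11.31 to 11.61, and 7 of the 8 were detected on some array, Cryaa being the exception. All 10 surface ectoderm markers were detected, with sums of 12.87 to 13.05 in wild type and 13.10 to 13.40 in Pax6-/-. Among cells that could be carried along, 9 periocular mesenchyme markers summed to 11.00 to 11.20 in wild type and 10.39 to 10.62 in Pax6-/- (Dcn undetected). Single mesenchyme markers did not all move as the sum did: 5 of the 9 were higher and 4 lower in Pax6-/-. The higher ones include the undetected Dcn, whose log2 difference of 0.10 is the median, and Col1a1, detected on 1 array. Pdgfra, a growth factor receptor, stood at -1.89. Sums of 9 endothelial markers were 8.81 to 9.31 and 7.99 to 8.57 (Kdr undetected), with a median difference of -0.21, that of Pecam1, detected on 1 array. Sums of primitive erythroid markers (7 on the array, Epor undetected) overlapped between genotypes, at 12.49 to 13.74 and 11.53 to 13.81. The overlap came from Pax6-/- replicate 1 at 13.81, while replicates 2 and 3, at 11.53 and 12.26, lay below every wild type array. All 7 markers had a negative log2 difference, with a median of -0.60. For 9 optic vesicle and neural markers (Sox1 undetected) the wild type sums were 9.54 to 9.69, and the Pax6-/- sums were 9.49, 10.92 and 10.39, so replicates 2 and 3 lay above every wild type array. Pax2, an optic stalk factor, was higher on every Pax6-/- array (6.93, 9.92 and 8.14 against 6.13, 5.05 and 6.22 on the log2 scale). The median log2 difference of the list, -0.12, was that of the undetected Sox1, so it does not describe the detected markers. In this list 4 markers were higher: Pax2 at 2.53, Lhx2 at 1.13, Tubb3 at 0.64 and Otx2 at 0.56. The 5 lower were Sox1, Hes5 at -0.46, Rax at -0.39, Mitf at -0.23 and Vax2 at -0.20. The part of these cell types in the gamma crystallin values was not tested.

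Genes of late fibre cells were in part not detected. Of 8 such markers on the array, Lim2, Gja3, Birc7 and Hsf4 were detected on no array. Bfsp2 was detected on 3 wild type arrays and 1 Pax6-/- array, and Dnase2b on 1 Pax6-/- array alone. Lgsn was detected on 2 Pax6-/- arrays and 0 wild type arrays. Its log2 signals were 4.65, 4.75 and 4.72 in wild type and 5.05, 5.35 and 5.66 in Pax6-/-, without overlap. The log2 of the summed signal was 8.36 to 8.52 in wild type and 8.24 to 9.19 in Pax6-/-. Mip, the water channel of fibre cells, was detected on all 6 arrays, with log2 signals of 7.19, 7.45 and 7.34 in wild type and of 6.66, 8.07 and 8.59 in Pax6-/-. Its log2 difference was 0.44 (SE 0.50, limma adjusted p = 0.786).

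The gamma crystallins were set beside a list of 44 other lens genes, of which 25 had a tested probe. Of these 17 were lower and 8 higher in Pax6-/-, 0 passed limma's adjusted threshold, which 0.00912% of all genes passed. At an unadjusted p under 0.05 there were 8 lower and 1 higher, where 5.87% of all genes were lower and 3.22% higher. The list's median log2 difference was -0.30, against -0.07 over all 10967 genes tested, and was -0.17 without wild type replicate 2, -0.09 without the detection filter (41 genes) and -0.13 with all tested probes of a gene averaged. Genotypes did not overlap for 7 lower members, or 28%, against 10.3% of all genes, and for 2 higher members, Meis1 and Meis2, or 8%, against 7.21%. The lower members include Pax6, the gene that was knocked out. They also include Crybb3 and Pitx3, which met the detection filter through their wild type arrays alone. These counts therefore describe the list and lend no support to a direction. With all tested probes of every gene averaged before the fit, Maf (limma adjusted p = 0.0338) and Crybb3 (limma adjusted p = 0.0368) passed. Averaging left their own differences unchanged, at -2.59 and -2.64. Their standard errors were 0.27 and 0.30 in that fit, against 0.28 and 0.31 in the main fit.

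Among alpha and beta crystallins 4 of 8 were tested. Crybb3, a basic beta crystallin, had the largest difference (-2.64, SE 0.31, limma adjusted p = 0.0920), and read 7.34, 7.64 and 6.70 in wild type against 4.53, 4.65 and 4.58 in Pax6-/- on the log2 scale. No Pax6-/- array detected it, and its mean was at least 4.54-fold lower by the bound used for Cryge. The smallest difference was that of Cryba4, another beta crystallin (-0.07, SE 0.46). Of the lens fibre genes 4 of 12 were tested, from Bfsp2, a beaded filament protein, at -0.30 (SE 0.37) to Mip at 0.44.

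Among regulators, 17 of 24 were tested, 11 lower and 6 higher. Maf, which activates crystallin promoters, had the largest negative difference (-2.59, SE 0.28, limma adjusted p = 0.0885). It read 7.81, 7.98 and 7.34 in wild type and 4.97, 5.10 and 5.30 in Pax6-/- on the log2 scale, and was detected on 2 Pax6-/- arrays. Other factors that act on crystallin genes also had negative differences that did not pass: Prox1 at -1.43 (SE 0.41), Pitx3 at -1.33 (SE 0.33, detected on no Pax6-/- array), Sox2 at -0.99 (SE 0.40) and Six3 at -0.92 (SE 0.36), each lower on every Pax6-/- array. The homeodomain factor Meis2 stood at 0.69 (SE 0.25) and Meis1 at 0.39 (SE 0.27), each higher on every Pax6-/- array. By the brightest probe, the largest positive difference was that of the retinoic acid receptor Rara (0.89, SE 0.50, limma adjusted p = 0.623). With all tested probes of a gene averaged, Prox1 stood at -1.47, Pitx3 at -1.33, Sox2 at -0.70 and Six3 at -0.48. Meis2 was then at 0.64, and Meis1 at 1.00, above Rara.

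**Figure D3:**
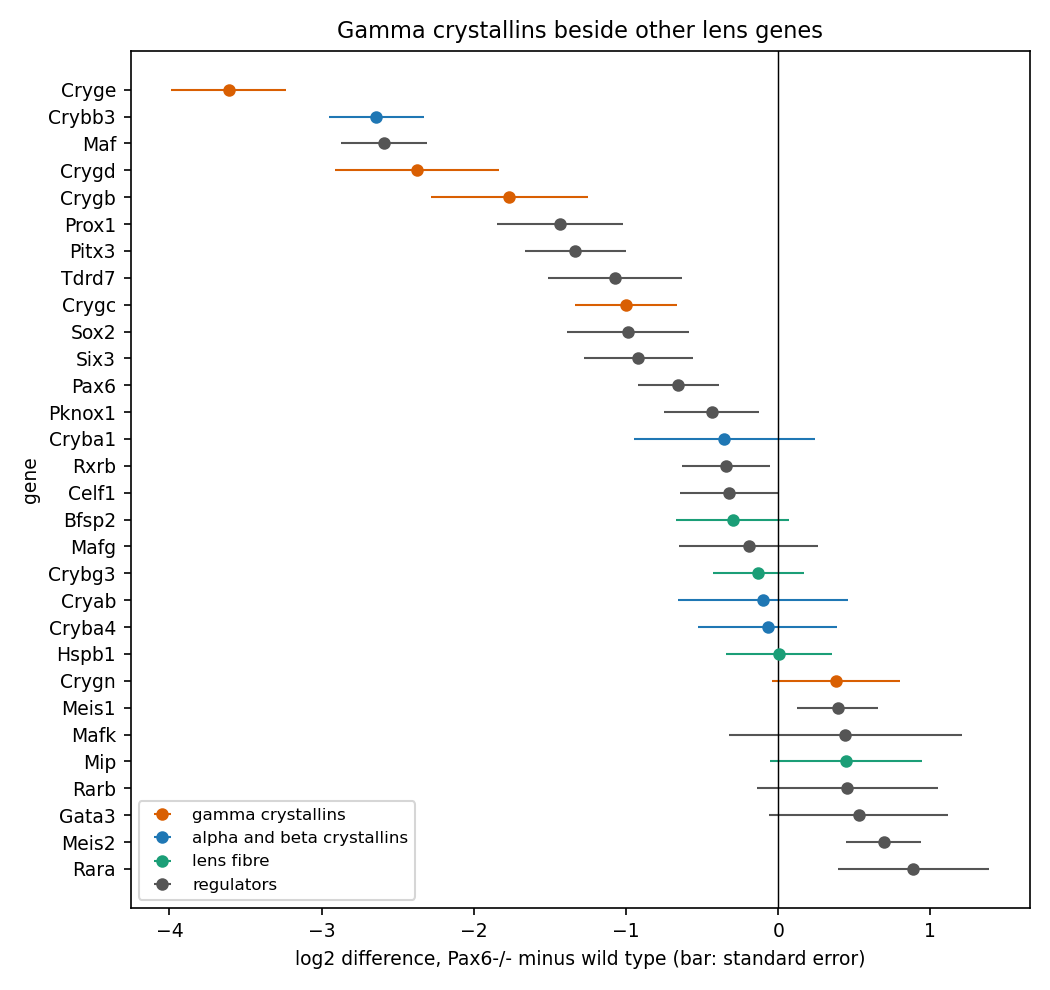
Log2 difference, Pax6-/- minus wild type (x axis, bars are the standard error), of the 5 tested gamma crystallins and 25 other lens genes (y axis), coloured by group. Cryge has the largest negative difference shown, followed by Crybb3, Maf and Crygd.

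The tested genes with the profile most like that of Cryge were found from the root mean square distance between log2 signals on the 6 arrays, each probe taken relative to its wild type mean. The closest of 10966 genes was Col13a1, a transmembrane collagen, at a distance of 0.20. Next came Steap1, of a family of metalloreductases (0.39), Gad2, which makes the transmitter GABA (0.46), and the chemokine Cx3cl1 (0.48). The others were the immediate early factor Egr1 (0.54), Phlda1, a pleckstrin homology-like domain protein (0.55), the transglutaminase Tgm2 (0.64) and the fatty acid elongase Elovl3 (0.68). All 8 were detected on the 3 wild type arrays and on at most 2 Pax6-/- arrays. The genes share the same 6 arrays. On the same measure Crygd ranked 24th at 0.97, Crygb 129th at 1.42, Crygc 806th at 1.89 and Crygn 9724th at 2.94.

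The values of the closest pair are given as a description, since Col13a1 was chosen on them. Relative to the wild type mean, Cryge stood at -0.37, 0.43 and -0.06 on the wild type arrays, and Col13a1 at -0.33, 0.24 and 0.10. On the Pax6-/- arrays they stood at -3.96, -3.89 and -2.98 for Cryge and at -3.64, -3.83 and -2.71 for Col13a1. Both were highest on wild type replicate 2, and among the Pax6-/- arrays on replicate 3. On Pax6-/- replicates 1 and 2 neither probe was detected, so their order there has no meaning.

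**Figure D4:**
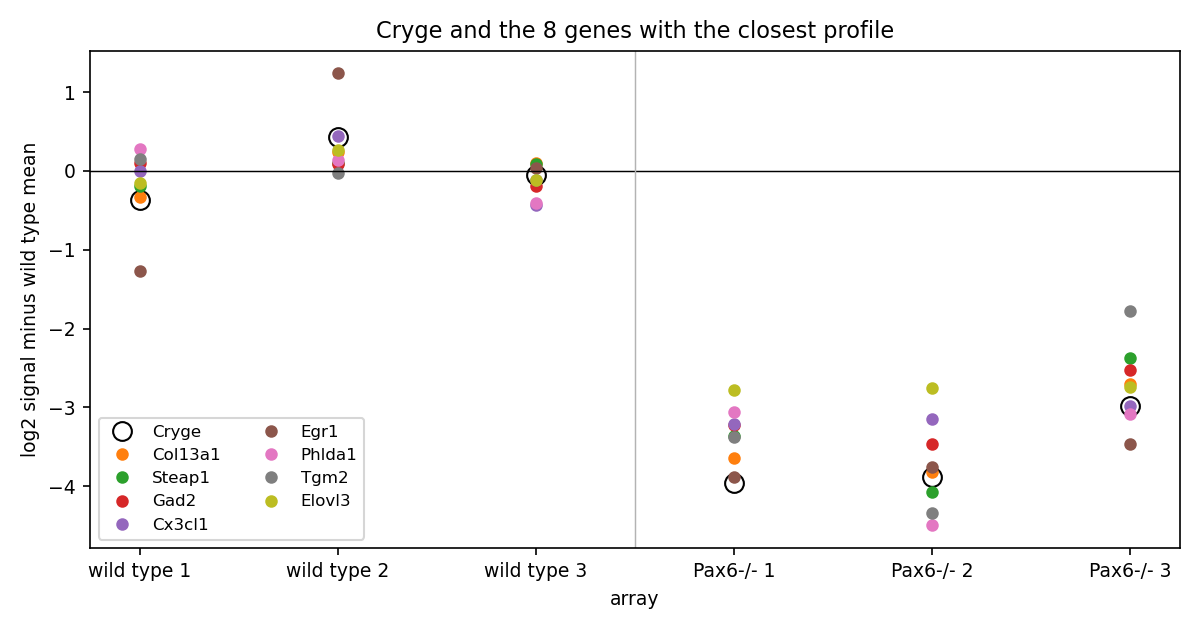
Log2 signal relative to each probe's wild type mean (y axis) on the 6 arrays (x axis) for Cryge, drawn as open black circles, and the 8 genes nearest to it, drawn as filled circles. On Pax6-/- replicate 3 Cryge is at -2.98 and Col13a1 at -2.71, both above their values on the other Pax6-/- arrays.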

How the data were processed

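The authors deposited, per the file headers, a probe table with an average signal (intensity, linear), a bead count, a bead standard error (other unit, deposited beside each signal) and a detection p-value for each of 6 Illumina arrays. The export tool was GenomeStudio, per the submitters' processing notes. The authors also deposited their own processed intensity values, partly below 0, made by a normalization that the labels and headers do not name.

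Signals were background-corrected with limma's neqc (limma 3.58.1, R 4.3.3; offset of 16, negative controls inferred from the detection p-values), quantile normalized and taken to log2. The offset compresses differences of dim probes. Probes with a detection p under 0.05 on at least 3 arrays, 21971 of 45281, entered limma (lmFit, eBayes) with genotype as the term, and p-values adjusted by Benjamini-Hochberg. The number of arrays limits the precision (median SE 0.38). The fit was tested on simulated data. Arrays were not paired by replicate number. Deviations of same-numbered arrays correlated at 0.02 to 0.06 and those of unlike numbers at -0.06 to 0.03, all small.

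Every probe of the members is reported. Symbols came from the platform annotation and promoter sequences from RefSeq (GRCm38.p6), where all 8 genes matched. A listed gene was represented by its brightest tested probe. Listed genes were named where the adjusted p was under 0.1 or the difference was the largest of its part in either direction, and the 8 nearest profiles by distance to the brightest member; Prox1, Pitx3, Sox2, Six3, Meis1, Meis2, Cryba4 and the marker genes were named beyond this. The members, lists and rules were chosen with earlier results of these data known. Alternatives covered background, offset, normalization, the authors' values, detection filter, slide and replicate as blocks, array weights, variance prior and each array left out. Figures were drawn with matplotlib 3.10.9.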

Additional observations from a re-analysis of the deposited data

How the results depend on the processing

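All 4 lower gamma crystallin probes kept a negative difference under every alternative in which they were fitted. Crygc did not meet the filter of detection p under 0.01 on at least 3 arrays and was not fitted there. Of the tested probes 0 passed with all but 1 setting, array weights, where 1 did, Cryge. Crygn changed sign without wild type replicate 2, and with 1 array left out lay between -0.00824 and 0.627. Without background correction and with an offset of 50 the differences shrank, to -2.40 and -2.59 for Cryge, -1.44 and -1.60 for Crygd, -1.0 and -1.10 for Crygb and -0.52 and -0.54 for Crygc, as a larger constant under dim signals compresses them. Over all probes 2 passed, against 4 with the authors' values, 6 without the detection filter, 5 with detection p under 0.01, 17 with array weights, 4 with a trended and robust prior, and 0 with the slide as a block. The replicate block gave 0, and limma's adjusted p of Cryge was then 0.509. That block assumes a pairing that the small correlations of same-numbered arrays do not establish. With 1 array left out the count over all probes was 0 to 2, and 0 to 0 for gamma crystallins and for the lens list. In the lens list 2 genes, Maf and Crybb3, passed when probes of every gene were averaged, with their own differences unchanged. The causes of these shifts in calls were not tested. At a detection p under 0.01, 4 in place of 5 member probes were detected on all wild type arrays. Probes near background, which include most gamma crystallin values in Pax6-/- tissue, limit how large a fall can be measured.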
